A study of Mus musculus with 15 samples.

Results

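Pax6, Meis1, Meis2, Barhl1, Barhl2, En1, En2, Otx1 and Otx2 are homeobox genes, listed here under the cerebellar granule cell lineage. That is the name of the list and was not tested for each gene. Meis2 was low in every group but E15.5. The genes were taken as a named list and not by a rule on their values, although earlier results of these data were known. All 9 were found by symbol among the 21889 genes of the deposited gene count table. All 9 also passed the filter on low counts, which left 15259 genes. RNA-seq of poly(A) RNA had been done on 15 libraries of mouse cerebellar cells, with 3 in each of 5 groups. Granule neuron precursors were labelled E15.5 with the genotype Math1-GFP, and P1, P7 and P14 with the genotype wild type. Medulloblastoma cells (MB), from tumours of Ptch1 heterozygous mice, had no age label. Both kinds of cells had been isolated by Percoll fractionation, which enriches for small dense cells and does not sort by a marker. Math1 is an older name of Atoh1, and the labels do not say that cells were sorted by GFP. At E15.5 the age and the genotype label change together and cannot be told apart. The labels do not say whether the libraries of a group came from separate animals or pools, so p-values measure the spread between these samples, which may be technical.

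A homeodomain is a DNA-binding fold whose recognition helix, the third, lies in the major groove and reads the bases. Pax6 combines one with a paired domain. Meis1 and Meis2 belong to the TALE class, which binds DNA together with Pbx proteins, Barhl1 and Barhl2 are the mammalian BarH genes and En1 and En2 the engrailed genes, and Otx1 and Otx2 are the orthodenticle genes of the anterior brain. In the cerebellum, Atoh1-positive cells of the rhombic lip form the external granule layer, where precursors divide in response to Sonic hedgehog before they migrate inward. Ptch1 is the receptor that restrains this pathway, and its loss leads to medulloblastoma.

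The coding bases of the recognition helix are shown for each gene because 8 of the 9 form pairs of paralogues whose reads could be confused. Sequences were read 5′ to 3′ from the GENCODE M21 transcripts of GRCm38, and capitals mark bases that differ from the paralogue at the same place. Pax6 has no partner in the list and no capitals.
Pax6: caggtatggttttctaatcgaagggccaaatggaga
Meis1: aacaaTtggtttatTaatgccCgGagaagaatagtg
Meis2: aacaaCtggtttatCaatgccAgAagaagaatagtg
Barhl1: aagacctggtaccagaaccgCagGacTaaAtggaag
Barhl2: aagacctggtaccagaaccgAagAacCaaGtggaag
En1: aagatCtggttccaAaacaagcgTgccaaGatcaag
En2: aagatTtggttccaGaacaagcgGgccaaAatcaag
Otx1: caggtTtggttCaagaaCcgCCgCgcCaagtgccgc
Otx2: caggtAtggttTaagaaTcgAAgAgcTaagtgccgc
Each pair differs at 4 of these 36 bases except the Otx pair, which differs at 7. Runs of identical bases were also sought over the full length of the transcripts that these bases were read from. The longest run was 23 for Meis1 and Meis2, 23 for Barhl1 and Barhl2, 17 for En1 and En2, and 18 for Otx1 and Otx2. Over all GENCODE transcripts it was 32 for the Meis pair and unchanged for the others. In En1 the helix lies at chr1:120607052-120607087 on the plus strand, in exon 2 of 2. In En2 it lies at chr5:28170298-28170333 on the plus strand, also in exon 2 of 2. In the other 7 genes an intron splits these bases.

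The libraries held 12597472 to 43443132 counts in genes. The label of the cells was checked with 14 granule lineage markers, whose summed level was 3017 to 4466 CPM (counts scaled to 1 common library total) at E15.5, 3642 to 6084 at P1, 7265 to 7547 in P7 cells, 7142 to 8157 in those of P14 and 3192 to 4862 in the tumours. Atoh1 was present in every library, with means of 128.6 CPM at E15.5, 47.75 at P1, 30.6 in P7 cells, 11.9 in P14 cells and 279.8 in the tumours. Gabra6, a receptor subunit of mature granule neurons, was at 0 in all E15.5 libraries. In P1 replicates 1, 2 and 3 Gabra6 was at 1.12, 12.5 and 101.7 CPM. It was at 2.54 to 10.3 CPM in P7 cells and 160.6 to 201.7 in P14 cells. On the first principal component of all genes, the library labelled P1 replicate 3 lay nearer to P14 than any P7 library did, and P1 replicate 2 did too. Ptch1 itself was at 202 to 349 CPM in MB against 252 to 340.1 CPM at P7, and these counts do not resolve a mutant allele.

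**Figure D1:**
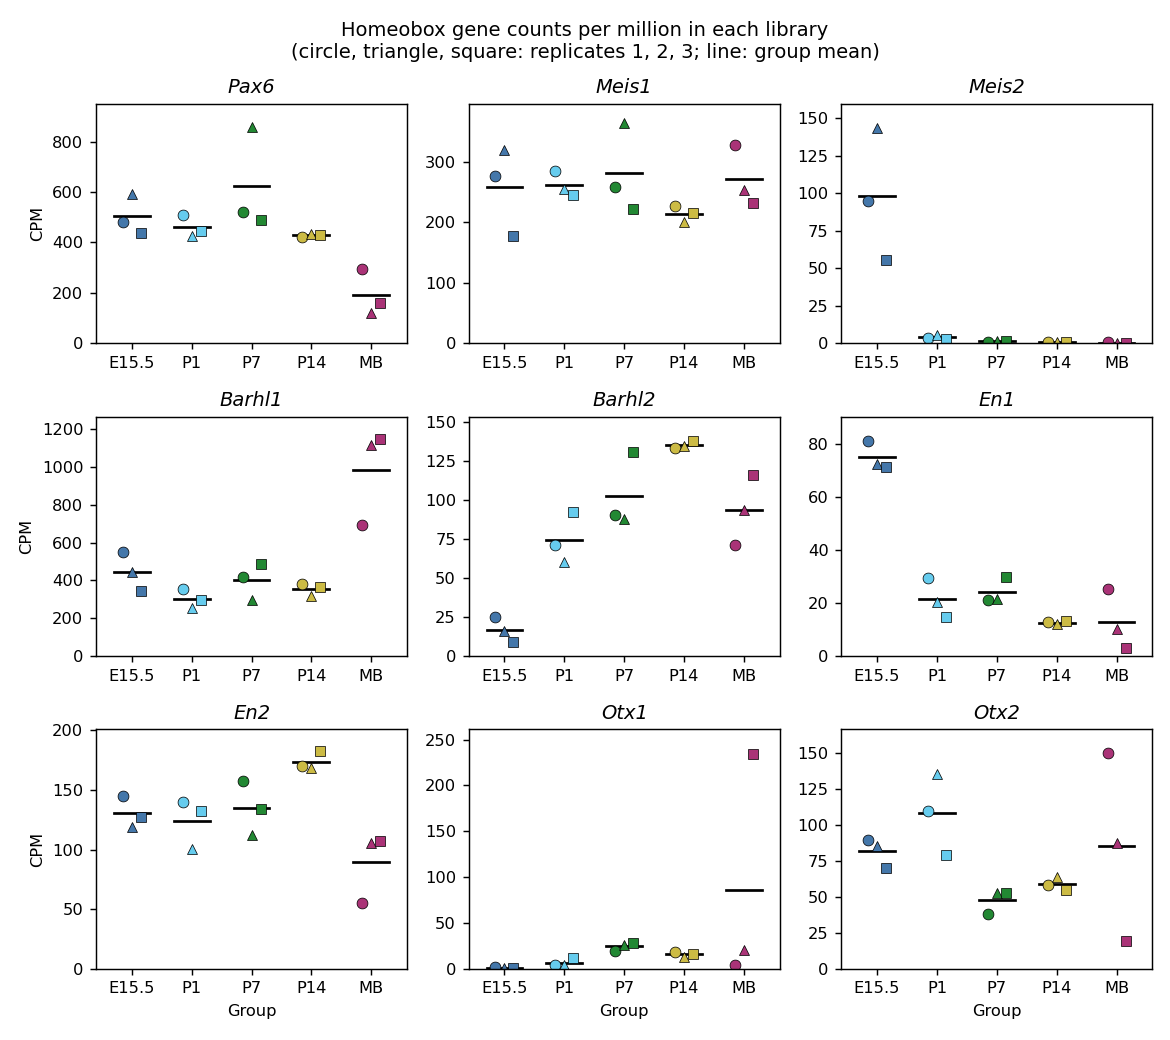
CPM of each gene (y axis, linear, its own scale in each panel) in each library of the 5 groups (x axis), with symbols for replicates and a line for the group mean. Meis2 and En1 were highest at E15.5, Barhl2 and Otx1 lowest at E15.5, Pax6 lowest and Barhl1 highest in MB, and Otx1 ran from 3.89 to 234 CPM within MB.

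Levels can be set beside each other between genes only per length, here as CPM per kilobase of the gene's exons. On this scale Barhl1 had the highest mean level in all 5 groups, at 121 ± 27.8 (SD, n = 3) at E15.5, 82.0 ± 13.7 at P1, 109.5 ± 26.0 in P7 cells, 97.1 ± 9.20 in P14 cells and 269 ± 69.5 in the tumours. Meis1 was next in each group, at 61.9 ± 3.87 to 81.4 ± 21.3 CPM per kilobase. Its libraries overlapped those of Barhl1 at P1 and P7 and lay apart at E15.5, P14 and in MB. Pax6 followed Meis1 at E15.5 (59.9 ± 9.46), P1 (54.7 ± 5.24) and P7 (74.3 ± 24.2). At P14 (51.0 ± 0.560) it overlapped Barhl2 (52.0 ± 0.915), and in MB (22.7 ± 10.96) its mean lay below those of Barhl2, Otx1 and Otx2, with overlapping libraries. The lowest per length was Otx1 at E15.5 (0.340 ± 0.305) and Meis2 in every other group, from 1.31 ± 0.542 at P1 down to 0.0880 ± 0.131 in MB. The summed level of the 9 genes was 287 to 410.2 CPM per kilobase in the precursor libraries and 413, 487 and 557 in the 3 MB libraries.

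Each comparison between groups was made with edgeR's quasi-likelihood test over all 15259 genes, and a gene was called at a Benjamini-Hochberg adjusted p (FDR) under 0.05. Between E15.5 and P1, 4 of the 9 were called, beside 46.3% of all genes tested. Barhl2 and Otx1 were higher (25.4% of all genes were called higher) and Meis2 and En1 lower (20.9% lower). Between E15.5 and P7 the same 4 genes were called in the same directions, beside 37.8% of all genes, with 21.6% called higher and 16.2% lower. These comparisons share the E15.5 libraries. The median log2 change of the 9 was -0.07 at P1 and 0.05 at P7, where that of all genes was 0.03 and 0.02.

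Fewer genes were called between later ages. Between P1 and P7 edgeR called 0 of the 9, beside 3.15% of all genes (1.40% higher and 1.74% lower), with 2 at an unadjusted p under 0.05 (Meis2 and Otx2) and 1 called by DESeq2 (Meis2). Between P7 and P14 it called 0, beside 10.3% of all genes (5.81% higher and 4.51% lower), with 0 at an unadjusted p under 0.05 and 0 by DESeq2, although a fit of these groups alone called En1 and Otx1. Between P1 and P14 only Meis2 was called, lower, beside 8.94% of all genes, with 3.63% called higher and 5.31% lower. Its call was lost in 5 of the 6 fits that left out 1 library, all but that without the library labelled P1 replicate 3. In a fit of P1 and P14 alone Barhl2, En2 and Otx2 were called as well. The number of all genes called also moved with the setting. Between P1 and P7 it was 480 in the main fit, 9 without P1 replicate 2 and 1209 by DESeq2. Between P7 and P14 it was 1574, 125 without P14 replicate 2 and 3838 with these groups alone. Between P1 and P14 it was 1364, 154 without P14 replicate 2 and 4089 with these groups alone.

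In MB against P7, Pax6 and Meis2 were lower and Barhl1 higher, 3 of the 9 beside 34.5% of all genes (13.7% higher and 20.7% lower). Against P14, Pax6 and En2 were lower and Barhl1 and Otx1 higher, 4 of the 9 beside 50.0% of all genes (22.9% higher and 27.2% lower). Against E15.5, Pax6, Meis2 and En1 were lower and Barhl1, Barhl2 and Otx1 higher, 6 of the 9 beside 50.1% of all genes (26.0% higher and 24.2% lower). The 3 comparisons share the MB libraries. Pax6 and Barhl1 were called in all of them. The count against P7 was 5 without MB replicate 1, where En1 and Otx1 were added, and 5 without MB replicate 3, where En2 and Otx2 were added.

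Markers of other cell types moved in these comparisons too. From E15.5 to P1 all 8 astroglial, all 9 oligodendrocyte, all 8 endothelial and all 9 pericyte and meningeal markers were called higher, as were 8 of 9 of microglia and macrophages, beside 25.4% of all genes. Their median log2 changes were 4.03, 3.94, 4.53, 5.58 and 2.79. The summed endothelial markers were at 14.1 to 36.5 CPM at E15.5, 415 to 626 at P1, 311 to 377 in P7 cells, 773 to 802 in P14 cells and 20.3 to 35.98 in the tumours. The astroglial sum was 330.5 to 488.5 CPM at E15.5, 2836 to 4362 at P1, 2258 to 4568 in P7 cells, 3815 to 5076 in P14 cells and 1652 to 2149 in the tumours. None of these markers was at 0 throughout a group. All 9 choroid plexus markers were also called higher from E15.5 to P1 (median 4.17). Of 9 GABAergic markers 7 were called lower and 1 higher (median -1.32), beside 20.9% and 25.4% of all genes. Of 8 Purkinje cell markers 2 were called higher and 2 lower (median -0.23).

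In MB against P7, all 8 endothelial and all 9 pericyte and meningeal markers were lower (medians -3.55 and -3.70), as were 6 of 8 Purkinje cell (-3.54), 5 of 8 astroglial (-1.69), 5 of 9 oligodendrocyte (-1.25), 3 of 6 unipolar brush cell (-3.08) and all 9 GABAergic markers (-6.20), beside 20.7% of all genes. In these lists 1 Purkinje cell, 2 astroglial and 2 oligodendrocyte markers were called higher, beside 13.7% of all genes. Of the microglia and macrophage markers 6 of 9 were higher (2.03), with a sum of 51.2 to 157 CPM in P7 cells and 178 to 483 in the tumours. The Purkinje cell gene Skor2 was at 0 in all 3 tumours. Within the 14 granule lineage markers 6 were lower and 1 higher (median -0.82). Neurod2, a factor of differentiating granule neurons, fell from 283 ± 83.1 to 5.56 ± 5.34 CPM (-5.69, FDR 1.96e-06) and Atoh1, the factor of dividing precursors, rose from 30.6 ± 7.85 to 279.8 ± 43.0 CPM (3.19, FDR 1.28e-06). The part of these cell types in the values of the 9 genes was not tested.

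**Figure D2:**
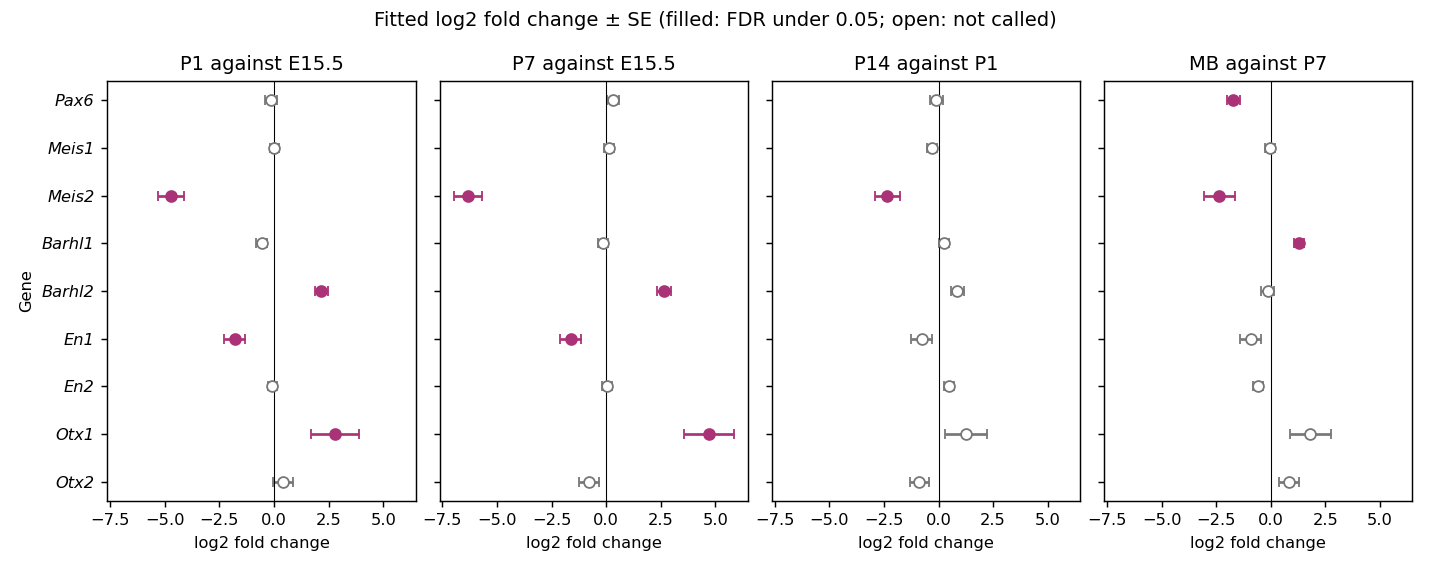
Fitted log2 fold change (x axis) of each gene (y axis) in 4 comparisons, with bars for the standard error and filled points for an FDR under 0.05. Meis2 had the largest fall from E15.5, of -4.72 at P1 and -6.35 at P7, and in MB against P7 the called genes were Pax6 (-1.71), Meis2 (-2.36) and Barhl1 (1.30).

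Pax6 (ENSMUSG00000027168, chr2:105509053-105543317 of mm9, plus strand) is a marker and regulator of rhombic lip and granule cells. Its level was 479, 592 and 438 CPM in the E15.5 libraries, 509, 425 and 444.5 at P1, 522, 858 and 491 in P7 cells, 423, 432 and 431 in P14 cells, and 294, 118 and 160.1 in the tumours, in the order of the replicates. P7 replicate 2 was the highest library, and all 3 MB libraries lay below all 12 precursor libraries. P14 lay below P7 and E15.5 without overlap, and the other pairs of ages overlapped. The precursor means were 503 ± 79.5, 459.6 ± 44.0, 624 ± 204 and 429 ± 4.71 CPM (SD, n = 3), and none of the 5 comparisons between ages called Pax6. Pax6 was lower in MB than at P7 by a log2 fold change of -1.71 (SE 0.29, FDR 3.39e-04), than at P14 by -1.17 (SE 0.29, FDR 0.00355) and than at E15.5 by -1.40 (SE 0.29, FDR 9.65e-04). In bulk RNA, fewer cells of a type and less RNA per cell cannot be told apart. Each of the 14 alternatives kept these 3 calls. Within the libraries that were counted alike, which left MB replicate 1 as the only tumour, the change against P7 was -1.09 (FDR 0.0147). In that fit, as in the one of P1 against E15.5 within 1 counting set, a group is 1 library, assumed to vary like the other groups, which supply the spread. The gene table held 85.0% to 90.3% of the transcript table's Pax6 reads in precursors and 78.3% to 80.9% in MB.

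Meis1 (ENSMUSG00000020160, chr11:18780433-18918961, minus strand) is a TALE factor of dividing and young granule cells. Its level was 277, 319.5 and 177 CPM at E15.5, 285, 255 and 245 at P1, 258, 364 and 222 in P7 cells, 226, 199.9 and 216 in P14 cells, and 327, 253.5 and 232 in the tumours. The groups overlapped, apart from P14, whose 3 libraries lay below those of P1 and of MB. Meis1 was not called in any of the 8 comparisons. Its log2 changes ran from -0.40 (P14 against P7, FDR 0.274) to 0.34 (MB against P14, FDR 0.226). Gm16140 overlaps a Meis1 exon on the opposite strand, and reads from the shared stretch cannot be told apart without strand. Gm37818, not among the genes counted, overlaps a Meis1 exon on the same strand, where strand would not separate the reads.

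Meis2 (ENSMUSG00000027210, chr2:115688800-115890783, minus strand), its paralogue, is known in the embryonic cerebellum as a marker of young neurons of the cerebellar nuclei. The E15.5 libraries held 95.0, 143 and 55.7 CPM (2179, 1714 and 2121 counts). The P1 libraries held 3.09, 5.47 and 2.60 CPM, those of P7 0.994, 1.30 and 1.31, those of P14 0.742, 0.874 and 0.568, and those of MB 0.674, 0.0733 and 0. The 3 MB libraries had 17, 3 and 0 counts. All E15.5 libraries lay above all others, each precursor age lay below the age before it without overlap, and MB overlapped P14. Meis2 fell by 4.72 on the log2 scale from E15.5 to P1 (SE 0.59, FDR 2.02e-05) and by 6.35 from E15.5 to P7 (SE 0.64, FDR 3.92e-06). From P1 to P14 the log2 change was -2.34 (SE 0.59, FDR 0.0266), and the steps from P1 to P7 (-1.63, FDR 0.120) and from P7 to P14 (-0.71, FDR 0.468) were not called.

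In MB, Meis2 was lower than at E15.5 by -8.70 on the log2 scale (SE 0.75, FDR 2.58e-07) and than at P7 by -2.36 (SE 0.70, FDR 0.0167), while the change of -1.64 against P14 was not called (FDR 0.0737). MB replicate 1 held most of the tumour counts. Without it the changes were -10.96 against E15.5 and -4.61 against P7, both called, and -3.90 against P14 (FDR 0.00102). Without MB replicate 2 the change against P7 was -1.81 and not called (FDR 0.0807). A fit of MB and P7 alone gave -2.29 (FDR 0.127), and MB replicate 1 within its counting set -0.83 (FDR 0.262). The 9 markers of GABAergic interneurons, cells that also arise in the embryonic cerebellum, summed to 626 to 838 CPM at E15.5, 194 to 278 at P1, 227.5 to 269.6 in P7 cells, 111 to 169.9 in P14 cells and 5.52 to 8.73 in the tumours. Of these only Ptf1a was under 1 CPM at E15.5, against 7 of the 9 in MB. Their part in the Meis2 values was not tested.

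Barhl1 (ENSMUSG00000026805, chr2:28763199-28771932, minus strand) lies downstream of Atoh1 in granule cells. Its level was 548, 442 and 344.5 CPM at E15.5, 352, 252 and 298 at P1, 420.1, 298 and 486 in P7 cells, 383, 318 and 367 in P14 cells, and 692, 1115 and 1149 in the tumours. All 3 MB libraries lay above all 12 precursor libraries, MB replicate 1 being the lowest of them, and the 4 precursor ages overlapped one another. In MB Barhl1 was higher than at P7 by a log2 fold change of 1.30 (SE 0.25, FDR 7.89e-04), than at P14 by 1.47 (SE 0.25, FDR 1.77e-04) and than at E15.5 by 1.15 (SE 0.25, FDR 0.00121). Within its counting set MB replicate 1 was higher than P7 by 0.78 and not called (FDR 0.0512, with the spread from the other groups), the only alternative of 14 that lost the call against P7. From E15.5 to P1 the change was -0.57 (FDR 0.0696 by edgeR). DESeq2 called it (-0.58, FDR 0.0476), as did the fit without E15.5 replicate 3 (-0.77, FDR 0.0280).

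Barhl2 (ENSMUSG00000034384, chr5:106881533-106887459, minus strand), its paralogue, is known from sensory and commissural neurons. The E15.5 libraries held 25.2, 15.7 and 8.82 CPM, those of P1 71.3, 60.1 and 92.0, those of P7 90.1, 87.4 and 130.3, those of P14 133, 134 and 138, and those of MB 71.2, 93.1 and 116. All E15.5 libraries lay below all others, and P14 lay above the rest. Barhl2 rose by a log2 fold change of 2.17 from E15.5 to P1 (SE 0.32, FDR 7.48e-05) and by 2.63 from E15.5 to P7 (SE 0.32, FDR 2.00e-05). All 14 alternatives kept both calls, with ranges of 1.81 to 2.62 and 2.28 to 3.08. The change of 0.86 from P1 to P14 was not called by edgeR (FDR 0.0836) and was called by DESeq2 (0.86, FDR 0.0454). MB was higher than E15.5 by 2.50 (SE 0.32, FDR 1.25e-05). Against P7 (-0.13, FDR 0.772) and P14 (-0.53, FDR 0.154) it was not called, although its libraries lay below those of P14.

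The 250 bases before a RefSeq start of each Barhl gene (GRCm38.p6, both on the minus strand), for Barhl1 the one further upstream of 2, are shown because the members of the pair moved at different points, Barhl2 after E15.5 and Barhl1 in MB. Barhl1 is at chr2:28916669-28916918 and Barhl2 at chr5:106458167-106458416, and no GENCODE exon of the gene overlaps either window. Capitals mark the motifs named after the sequences, which were searched on both strands.
Barhl1: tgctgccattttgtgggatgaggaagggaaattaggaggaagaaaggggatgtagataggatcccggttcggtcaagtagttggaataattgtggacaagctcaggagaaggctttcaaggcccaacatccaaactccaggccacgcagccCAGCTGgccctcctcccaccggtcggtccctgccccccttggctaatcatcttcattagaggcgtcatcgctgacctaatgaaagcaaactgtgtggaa
Barhl2: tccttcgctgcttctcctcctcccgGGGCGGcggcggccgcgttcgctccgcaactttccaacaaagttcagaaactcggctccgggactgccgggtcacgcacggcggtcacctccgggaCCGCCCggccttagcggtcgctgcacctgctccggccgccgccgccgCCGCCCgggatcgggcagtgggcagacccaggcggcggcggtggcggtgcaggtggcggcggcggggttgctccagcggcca
CAGCTG, the E-box that basic helix-loop-helix factors can bind, occurred once in the Barhl1 window and is in 13% of all 32851 RefSeq windows of this length. GGGCGG, the GC box, occurred 3 times in the Barhl2 window and is in 32.7% of all windows. The homeodomain core TAATTA, in 4.84% of windows, the Otx-type site TAATCC, in 6.25%, and the Meis-type site TGACAG, in 15.9%, were not in the letters shown. The Barhl2 window had 74.8% G and C and an observed over expected CpG ratio of 1.03, against 52.8% and 0.403 for Barhl1 and a median ratio of 0.374 over all windows. The window at the other Barhl1 start, at chr2:28912496-28912745, held CAGCTG once and the Otx-type site once, with 56.8% G and C and a CpG ratio of 0.601. No measurement in this series bears on these bases directly, and 7 of the 9 genes had a promoter entry.

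En1 (ENSMUSG00000058665, chr1:122498995-122505873, plus strand) is required to form the midbrain and cerebellum. Its level was 81.2, 72.6 and 71.4 CPM at E15.5, 29.6, 20.35 and 14.7 at P1, 21.1, 21.6 and 29.85 in P7 cells, 12.7, 11.9 and 13.3 in P14 cells, and 25.3, 10.3 and 3.04 in the tumours. All E15.5 libraries lay above all others, and MB ran from below the P14 libraries to within the range of P1 and P7. En1 fell by 1.80 on the log2 scale from E15.5 to P1 (SE 0.49, FDR 0.00726), a call kept in each of 13 alternatives, and by 1.63 from E15.5 to P7 (SE 0.48, FDR 0.0153). The call at P7 was lost without P7 replicate 1 (-1.58, FDR 0.0502) or P7 replicate 2 (-1.56, FDR 0.0526). From P7 to P14 the change of -0.94 was not called (FDR 0.214), although the libraries lay apart. MB was lower than E15.5 by -2.54 (SE 0.50, FDR 6.06e-04), or -3.47 without MB replicate 1.

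En2 (ENSMUSG00000039095, chr5:28492236-28500152, plus strand), its paralogue, shapes cerebellar foliation. Its level was 145, 119 and 127 CPM at E15.5, 139.6, 101 and 132 at P1, 157, 112 and 134 in P7 cells, 169.9, 168 and 183 in P14 cells, and 55.5, 106 and 107 in the tumours. P14 held the highest libraries and MB replicate 1 the lowest, and the other 3 ages overlapped. En2 was lower in MB than at P14 by a log2 fold change of -0.96 (SE 0.23, FDR 0.00248), in each of 14 alternatives. Against P7 the change was -0.59 (FDR 0.0535) and against E15.5 -0.55 (FDR 0.0554), with MB below both without overlap. These were called in 5 and 6 of 14 alternatives.

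Otx1 (ENSMUSG00000005917, chr11:21894767-21901618, minus strand) acts in the cortex and midbrain and is expressed in parts of the external granule layer. The E15.5 libraries held 1.92, 0.585 and 0.341 CPM, from 44, 7 and 13 counts. The level was 4.33, 3.68 and 11.6 CPM at P1, 19.2, 26.4 and 28.4 at P7, and 18.4, 12.7 and 16.1 at P14. The precursor ages did not overlap one another, with E15.5 lowest, then P1, P14 and P7. In MB it was 3.89, 20.9 and 234 CPM (98, 857 and 5848 counts), so that replicate 1 lay below every P7 and P14 library and replicate 3 above all others.

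Otx1 rose by a log2 fold change of 4.70 from E15.5 to P7 (SE 1.14, FDR 0.00482), a call kept in each of 13 alternatives, and the change was 5.85 without E15.5 replicate 1. From E15.5 to P1 it was 2.79 (SE 1.10, FDR 0.0490), a call kept in 5 of 13 alternatives. It was lost, among others, without P1 replicate 1 (3.02), 2 (3.08) or the library labelled replicate 3 (2.08), without E15.5 replicate 2 (2.61) or 3 (2.22), in the transcript table (2.75) and within 1 counting set (3.48). The value without E15.5 replicate 1 was 3.94. Against E15.5, MB was higher by 6.51 (SE 1.22, FDR 3.96e-04). This was 3.72 without MB replicate 3, 7.66 without E15.5 replicate 1 and 4.82 averaged within counting sets, all called. Against P14 MB was higher by 2.45 (SE 0.97, FDR 0.0457), although the libraries overlapped. That value turned to -0.33 without MB replicate 3, and the call was also lost without P14 replicate 1 (2.58), 2 (2.32) or 3 (2.47), and when only the MB and P14 libraries were fitted (2.44).

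Otx2 (ENSMUSG00000021848, chr14:49277354-49287188, minus strand) specifies the forebrain and midbrain, is expressed in posterior granule precursors and is also a gene of the choroid plexus. Its level was 89.7, 85.4 and 70.1 CPM at E15.5, 109.6, 135.5 and 79.0 at P1, 38.0, 52.5 and 52.4 in P7 cells, 58.4, 63.8 and 55.0 in P14 cells, and 150.1, 87.3 and 19.0 in the tumours. P7 lay below the other 3 ages without overlap, and MB held both the highest and the lowest library of all 15. Otx2 was not called in any of the 8 comparisons. The largest changes were -1.18 from P1 to P7 (FDR 0.169), -0.87 from P1 to P14 (FDR 0.234) and 0.84 in MB against P7 (FDR 0.174). Without MB replicate 3 Otx2 was called higher in MB than at P7 (1.32, FDR 0.00134) and than at P14 (1.01, FDR 0.00508). Within its counting set MB replicate 1 was higher than P7 by 1.65. Fits of 2 groups alone called Otx2 lower at P7 than at E15.5 (-0.79, FDR 0.0175) and lower at P14 than at P1 (-0.88, FDR 0.0238). The 9 choroid plexus markers, led by Ttr, summed to 29.2 to 309 CPM at E15.5, to 309, 10560 and 3994 at P1, to 16.7, 482 and 2014 in P7 cells, to 5222 to 8646 in P14 cells and to 40.8 to 201 in the tumours. None was at 0 throughout a group. P1 replicate 2 was highest in both these markers and, among precursors, in Otx2, while in MB Otx2 reached 150.1 CPM in a library with 57.5 CPM of these markers. Their part in the Otx2 values was not tested. Reads of Otx2os1, on the opposite strand of Otx2, cannot be told apart either. Nor can those of Gm49154, which overlaps an Otx2 exon on the same strand and is not among the genes counted.

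The balance within each pair was followed as the share of the pair's CPM per kilobase. No test was made of these shares. Meis2 made up 29.5%, 35.4% and 27.7% of the Meis pair in the E15.5 libraries and at most 2.55% in each later library. Barhl2 made up 3.49% to 6.08% of the Barhl pair at E15.5, 22.2% to 30.3% at P1, 23.2% to 29.3% in P7 cells and 33.0% to 37.3% in P14 cells. In MB its share was 12.7%, 10.6% and 12.5%, above all E15.5 libraries and below all those of P1, P7 and P14. En2 made up 56.4% to 58.4% of the En pair at E15.5, 78.0% to 87.7% at P1 and P7, and 91.4% to 91.8% at P14. Its share in MB was 63.4%, 89.0% and 96.5%. Otx2 made up 97.7% to 99.5% of the Otx pair at E15.5, 85.9% to 97.1% at P1, 62.4% to 64.1% in P7 cells and 74.0% to 81.8% in P14 cells. In MB it was 97.2%, 78.9% and 6.79% in replicates 1, 2 and 3.

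**Figure D3:**
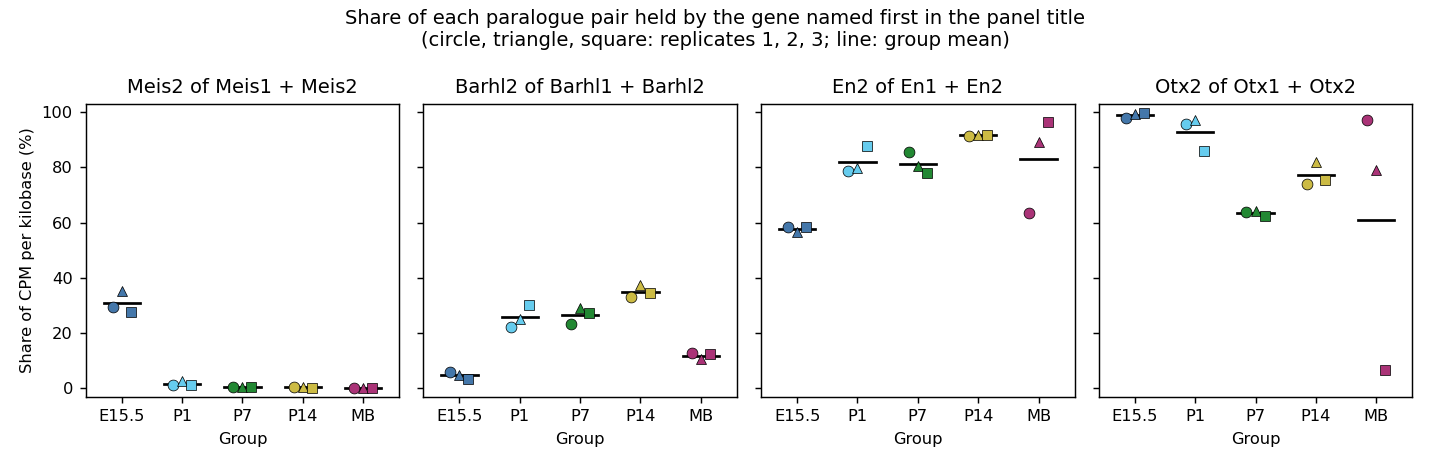
Share of a pair's CPM per kilobase (y axis, percent) held by the gene named first in each panel title, in each library of the 5 groups (x axis), with symbols for replicates and a line for the mean. In every pair the shares at E15.5 lay apart from those of the later ages. The gap was narrowest for Otx2, with at least 97.7% at E15.5 and at most 97.1% at P1. In MB the Otx2 share spanned 6.79% to 97.2%.

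The 3 tumour libraries differed more in some of these genes than in others. Relative to the P7 mean, Otx1 was at 0.158, 0.850 and 9.50 in MB replicates 1, 2 and 3. Otx2 was at 3.15, 1.83 and 0.399 in the same libraries and En1 at 1.05, 0.426 and 0.126. Replicate 3 thus held the most Otx1 and the least Otx2 and En1, and replicate 1 the reverse. Barhl1 was above the P7 mean in all 3 (1.72, 2.78 and 2.86) and Pax6 below it in all 3 (0.471, 0.189 and 0.257). Meis1 stayed between 0.824 and 1.16 and Barhl2 between 0.694 and 1.13. En2 was at 0.412 in replicate 1 and at 0.785 and 0.794 in the others. With 3 tumours no correlation between these genes was computed. MB replicate 1 is also the only tumour of its counting set, so that set and tumour cannot be told apart for it.

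**Figure D4:**
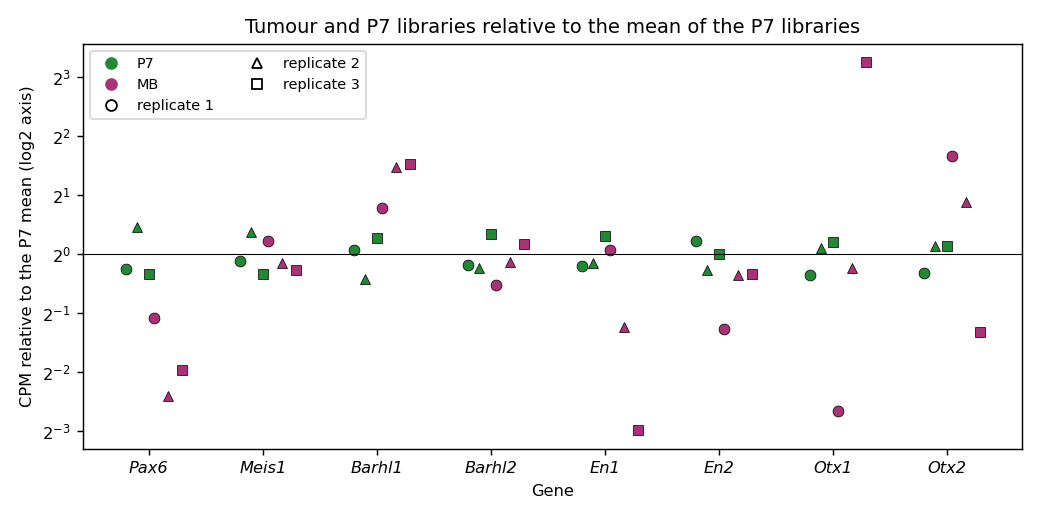
CPM of 8 genes (x axis) relative to the mean of the P7 libraries (y axis, log2 scale) in each P7 and MB library, with a line at the P7 mean. Meis2 is left out because 1 MB library held 0 counts. Barhl1 lay above and Pax6 below the line in all 3 tumours, and Otx1, Otx2 and En1 spread furthest.

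The partners of these factors were taken from lists of known genes. TALE proteins bind DNA as complexes, and the list holds Pbx, Pknox, Tgif and Meis3 genes and the Pbx inhibitor Pbxip1. From E15.5 to P1, 2 of these 10 rose and 4 fell, beside 25.4% and 20.9% of all genes. The median log2 change was -0.38 beside 0.03 for all genes. Pbx3 fell from 138 ± 17.6 to 49.1 ± 11.8 CPM (-1.50, FDR 5.15e-05) and Meis3 from 75.1 ± 12.4 to 27.5 ± 4.004 CPM (-1.45, FDR 5.85e-05). Pbxip1 rose by 1.68 (FDR 2.41e-04) and Pknox1 by 0.45 (FDR 0.0272), a call lost without E15.5 replicate 1 or 3 (0.45 and 0.38) or P1 replicate 1 or 2 (0.39 and 0.46). In MB against P7, 4 of the 10 rose and 1 fell (13.7% and 20.7% of all genes), with a median of 0.04 beside 0.02 for all genes. Pbx3 rose from 54.9 ± 10.02 to 131 ± 23.8 CPM (1.26, FDR 2.32e-04), and Pknox2 fell by 0.58 (FDR 0.0130).

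Engrailed, Barhl and Pax factors can recruit Groucho corepressors. Not every member of this family, encoded by the Tle genes and Aes, acts as a corepressor. Of 6 such genes 3 fell and 0 rose from E15.5 to P1, where 20.9% of all genes fell (median -0.39 beside 0.03 for all genes), among them Tle6 (-2.47, FDR 6.11e-06) and Aes (-1.20, FDR 0.00673). Tle4 (0.82, FDR 0.00134) and Tle1 (0.78, FDR 0.00136) rose in MB against P7, 2 of 6 where 13.7% of all genes rose, with a list median of -6.53e-04 beside 0.02.

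En1 and En2 are expressed around the isthmus, the signalling centre between midbrain and hindbrain, which forms at the border of the Otx2 domain. Of 10 isthmic genes tested, 6 fell from E15.5 to P1, beside 20.9% of all genes (median -1.40 beside 0.03). From E15.5 to P7, 8 fell, beside 16.2% of all genes (median -3.16 beside 0.02). Pax8 fell by 4.51 (FDR 5.79e-05) and Fgf17 by 3.93 (FDR 1.43e-04) from E15.5 to P1, from levels of 1.87 ± 1.00 and 3.03 ± 1.57 CPM. Tumours were lower than P7 in 2 of the 10 (20.7% of all genes). Pax2 fell from 63.2 ± 39.5 to 0.00814 ± 0.0141 CPM (FDR 3.84e-08), and it also marks precursors of GABAergic interneurons. Pax8 was at 0.0636 ± 0.0118 CPM at P7 and at 0 in MB (FDR 0.0286), and its call was lost in each fit that left out 1 library other than P7 replicate 2 (FDR 0.0531 to 0.0824). Of the 11 isthmic genes in the table, 10 had a mean under 1 CPM in MB, as had 8 at P7 and 8 at P14.

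Among 18 other homeobox genes tested, 5 rose and 9 fell from E15.5 to P1, beside 25.4% and 20.9% of all genes (median -0.79 beside 0.03). Lhx9 and Lhx2 are LIM homeobox genes of young rhombic lip neurons. Lhx9 was at 119.9, 34.3 and 31.6 CPM in the E15.5 libraries and at 2.60 ± 0.552 CPM at P1 (-4.57, FDR 1.12e-05). Lhx2 was at 95.7, 19.1 and 18.9 CPM in the E15.5 libraries and at 2.18 ± 0.615 CPM at P1 (-4.35, FDR 3.13e-05). E15.5 replicate 1 was highest in both, and without it the changes were -3.66 and -3.12. Hopx rose by 5.29 (FDR 2.93e-06), or 6.05 without E15.5 replicate 3. MB differed from P7 in 11 of them, with 3 higher and 8 lower, beside 13.7% and 20.7% of all genes (median -0.44 beside 0.02). Lhx2 rose from 3.15 ± 0.399 to 56.8 ± 20.2 CPM (4.17, FDR 3.93e-05) and Zfhx3 by 3.39 (FDR 0.00388), or 4.29 without P7 replicate 3. Lhx5 fell by 8.97 (FDR 2.91e-08), or 9.77 without MB replicate 2, and Zfhx4 by 5.78 (FDR 5.49e-08). Of 2 other Pax genes tested, Pax7 fell from E15.5 to P1 (-1.99, FDR 0.0183), a call lost without E15.5 replicate 1 (-1.58), P1 replicate 1 (-1.98) or the library labelled P1 replicate 3 (-1.51). It was -2.71 without P1 replicate 2.

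Of 8 Sonic hedgehog targets, 6 rose from E15.5 to P1, beside 25.4% of all genes (median 1.03 beside 0.03), with the largest rises in Hhip (5.18, FDR 6.52e-07) and Gli1 (3.19, FDR 2.26e-05). Ccnd1 (0.92) lost its call in each fit that left out 1 library other than the one labelled P1 replicate 3. Boc (0.67) lost it without E15.5 replicate 3 or P1 replicate 1. Sfrp1 (0.65) lost it without E15.5 replicate 3 or the library labelled P1 replicate 3. In MB against P7, 7 of the 8 rose, beside 13.7% of all genes (median 1.87 beside 0.02). Gli1, a transcription factor of the pathway, rose from 130.5 ± 15.8 to 547 ± 301 CPM (2.07, FDR 6.16e-04) and Sfrp1 from 408 ± 36.3 to 1665 ± 126 CPM (2.03, FDR 2.97e-06).

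For each of the 9 genes the 3 genes with the most similar log2 CPM over the 15 libraries were taken from 11567 genes. The libraries share groups and differ in depth, so the values are a description. Pax6 was most like Hook1 (Pearson r 0.959), B3galt2 (0.939) and Trhde (0.937). Meis1 was most like Fgd4 (0.911), Creb1 (0.902) and Smurf2 (0.886). Meis2, high at E15.5 only, was most like Nuak2 (0.981), Fblim1 (0.976) and Gprasp1 (0.973). Gprasp1 also came second for En1 (0.898), after Fam169a (0.899) and before Pdia3 (0.897). Barhl1, high in MB, was most like Prmt8 (0.961), Vav2 (0.958) and Mdga1 (0.945). Barhl2 was most like Rell1 (0.964), Heg1 (0.964) and Jph1 (0.963), and En2 like Nat8l (0.930), Car15 (0.930) and Necab3 (0.926). For Otx1 the closest were Cntnap1 (0.941), Ntn1 (0.935) and Papln (0.928). Otx2 had no close match, the highest being Pax3 (0.722), Cfap300 (0.707) and Bbs9 (0.699).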

How the data were processed

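Per the submitters' processing notes, reads were processed with Trimmomatic, TopHat, StringTie and HTSeq on mm9. The versions, the read length and the strand setting are not given in the sources used here. The authors deposited raw counts per gene, per transcription start site (TSS) model and per transcript, none of them normalized. Lines of the gene table that name no gene (44.6% to 60.5% of a library's records) were kept out. Symbols were matched by Ensembl ID for 20358 of 21889 genes. Contrasts between groups were tested with edgeR 4.0.16 in R 4.3.3 on the gene counts of all 15 libraries (filterByExpr with a minimum count of 10 and a minimum total of 15, TMM scaling, 1 mean per group, 10 residual degrees of freedom), with Benjamini-Hochberg adjustment over 15259 genes. CPM are counts over TMM-scaled library sizes, and CPM per kilobase divides by the union of exons in the transcript table. For likeness, CPM were put on the log2 scale (prior count 2) and genes averaging under 5 CPM were left out. The model was tested on simulated data.

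The genes and all lists were chosen with earlier results of these data known. All 9 genes are named in every comparison. From each list at most 2 called genes with the largest rise and 2 with the largest fall are named, and for each gene the 3 most similar ones. 1 gene that this rule names is not reported here. In 6 libraries (E15.5 replicates 1 and 3, all of P7, MB replicate 1) the gene table holds almost none of the transcript table's counts for Tsnax, against at least 92.4% in the others. These counting sets hold different ages, so P7 against P1 and P14 against P7 cannot be compared within 1 set. Replicate numbers were not used to pair the samples in the main fit, because the labels do not say what a number marks. Libraries with the same number did not deviate together, which cannot exclude a shared day or litter. Alternatives were DESeq2 1.42.0, its size factors, no filter, the replicate block, the other count tables, only the compared groups, 1 counting set, and leaving out each library. Sequences came from GENCODE M21 and RefSeq tables. Pou3f1, Pou3f2, Aurka, Otx2os1 and Corl2 were in the lists and were not used here. Depth limits Meis2 and Otx1 most, with 0 to 47 counts of Meis2 in each P7, P14 and MB library and 7 to 44 of Otx1 at E15.5. Counting error and animal-to-animal variation were not separated.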

Additional observations from a re-analysis of the deposited data

How the results depend on the processing

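Of 966 values of single genes under alternatives, 870 kept their direction and side of the threshold, 30 gained a call, 24 lost one and 42 changed direction. The number of the 9 genes called moved by over 1.5 times in few settings. In the TSS model table, where 6 of the 9 could be tested, it was 2 at P1 against E15.5 and 2 at P7 against E15.5 (4 in each main fit). DESeq2 called 1 at P7 against P1, and a fit of the 2 groups alone called 2 at P14 against P7 (0 in each main fit). At P14 against P1 it was 4 in a fit of the 2 groups alone, 2 inside 1 counting set, 2 by DESeq2 and 0 to 1 with single libraries left out (1 in the main fit). In MB against P7 it was 3 to 5 with single libraries left out. With the replicate number as a block the counts were 3, 4, 0, 0, 1, 3, 3 and 6 in the order in which the report takes the comparisons. The block lost Otx1 at P1 against E15.5 (2.49) and in MB against P14 (1.75) and changed no other call of the 9. Deviations of same-numbered libraries correlated at -0.312 to 0.332 over 30 pairs, and 4 of 15 libraries correlated best with their own number.

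Values that changed direction were not called in the main fit, except Otx1 in MB against P14. Inside 1 counting set they were, on the log2 scale, Meis1 -0.29 and En2 0.0591 (P1 against E15.5), En2 -0.0120 (P7 against E15.5), Meis1 0.21, En1 0.0583 and Otx1 -2.67 (MB against P7), and En1 -0.90 and Otx2 -0.15 (MB against P14). The transcript table gave Meis1 -0.0278 (P1 against E15.5) and 0.0280 (MB against P7). The block gave En1 -0.16 (MB against P14) and Otx2 -0.0784 (MB against E15.5). With single libraries left out, the ranges at P1 against E15.5 were -0.27 to 4.327e-04 for Pax6, -0.24 to 0.20 for Meis1 and -0.16 to 0.0595 for En2. At P7 against E15.5 they were -0.12 to 0.31 for Meis1, -0.34 to 0.0284 for Barhl1 and -0.12 to 0.16 for En2. At P7 against P1 they were -0.12 to 0.25 for Meis1, -0.0432 to 0.47 for En1 and -0.0122 to 0.23 for En2. In MB against P7 they were -0.21 to 0.17 for Meis1, -0.32 to 0.0725 for Barhl2 and -0.98 to 2.37 for Otx1. In MB against P14 they were -0.90 to 0.49 for En1, -0.33 to 3.02 for Otx1 and -0.15 to 1.01 for Otx2. In MB against E15.5 they were -0.14 to 0.25 for Meis1 and -0.62 to 0.54 for Otx2. The cause was not tested.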
